A study of Mus musculus with 6 samples.

Results

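The genes described here are 9 genes of lymphocyte egress and of the naive T cell programme, S1pr1, S1pr4, Klf2, Lef1, Foxp1, Bach2, Nsg2, Dapl1 and Igfbp4, measured in mouse iNKT cells (invariant natural killer T cells). They were chosen by name, with earlier results of these data known. Each was found on exactly 1 array row with no second gene symbol, giving 9 rows of 23521 tested and 9 of 22180 genes. The arrays were Affymetrix whole-transcript arrays, and values are log2 expression after RMA, a method that corrects background, normalises arrays against each other and summarises each row. The groups were PLZF_ON, 3 arrays from mice with a constitutively acetylated PLZF protein, and WT, 3 arrays from control mice. PLZF, encoded by Zbtb16, is the transcription factor on which iNKT cells depend. The design description names replicates 1 and 2 of each group as the arrays analysed, and these 4 arrays gave the main comparison; all 6 gave a second one. The sources used here do not give how the PLZF_ON allele was made, nor the organ, sex and age of the animals, and the extraction protocol speaks of frozen tissue although the cell type is given as iNKT cells. The labels do not say whether each replicate was a separate animal; if not, the p-values reflect technical spread alone.

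T cells leave the thymus and lymph nodes along a gradient of the lipid sphingosine-1-phosphate, which they sense through the receptor encoded by S1pr1. The factor KLF2 drives transcription of S1pr1 and of homing receptors, and CD69 takes the receptor off the cell surface. Naive T cells carry this egress programme together with the factors LEF1, FOXP1 and BACH2, which hold cells in an undifferentiated or quiescent state. Most mature iNKT cells instead have an effector or resident phenotype, with high CD44 and CD69 and little recirculation.

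Of the arrays, PLZF_ON replicate 3 stood apart. Its correlations with the other 5 arrays across rows ran from 0.895 to 0.898, against 0.957 to 0.973 for the remaining 10 pairs. Its values over all rows had a median of 5.01 and an SD of 1.79, against medians of 4.88 to 4.92 and SDs of 1.97 to 2.01 on the other arrays, so the deposited arrays do not share a common distribution. The immature thymocyte markers were also higher there: all 6 measured markers of that list had their highest value of the 6 arrays on it. Cd24a was at 9.58 there, against 4.41 to 5.27 on the other 5 arrays. The values of the 9 genes are therefore given over the 4 arrays that leave replicate 3 out and over all 6; values of other genes and lists are over the 4 arrays unless 6 are named. Of the genes listed as iNKT markers, Cd3e, which other T cells share, was between 10.23 and 11.49 on the 6 arrays. Zbtb16 was between 9.54 and 10.68. Cd44 and Il2rb of the same list were lower on every PLZF_ON array than on every WT array. Cd44 was at 7.24, 6.83 and 6.52 on PLZF_ON replicates 1 to 3, against 8.28, 7.91 and 8.02 on WT replicates 1 to 3. Slamf1 was the faintest iNKT marker listed, at 5.33 to 5.48 in WT. It was at 6.16, 5.83 and 4.73 on PLZF_ON replicates 1 to 3. Its difference was 0.59 over the 4 arrays, without overlap (limma adjusted p = 0.315), and 0.15 over the 6 (0.961). Zbtb16 itself had a difference of 0.51 over the 4 arrays, without overlap (limma adjusted p = 0.369). Over the 6 arrays its difference was 0.24 (limma adjusted p = 0.941), and PLZF_ON replicate 3 held its lowest value.

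Lef1, S1pr1, Igfbp4, Nsg2 and Klf2 were higher in PLZF_ON than in WT iNKT cells over the 4 arrays, Foxp1 and S1pr4 were slightly lower, Bach2 was slightly higher, and Dapl1 was near background in both groups. Lef1 alone of the 9 passed the test across all rows, at a limma adjusted p of 0.0347. That is 1 of 9, beside 0.170% of all rows called in either direction and 0.102% called higher. Without WT replicate 1, PLZF_ON replicate 1 or PLZF_ON replicate 2 the count was 0, and without WT replicate 2 it was 3. At an unadjusted limma p under 0.05, 5 of the 9 were higher and 1 was lower, beside 4.88% and 4.53% of all rows. Both PLZF_ON arrays lay above both WT arrays for 6 of the 9, beside 18.9% of all rows, and below both for 2, beside 19.3%. A positive difference was found for 6 of the 9, beside 49.3% of rows. The median difference of the 9 genes was 0.67 on the log2 scale, and that of all tested rows was -0.0035. As the 9 were chosen with earlier results known, these counts describe them and do not test them against all rows. In bulk samples such as these, fewer cells of a type and less RNA per cell cannot be told apart.

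Over all 6 arrays 0 of the 9 passed the adjusted test, beside 0.0935% of all rows, and without PLZF_ON replicate 3 the count was 1, Lef1. At an unadjusted limma p under 0.05, 4 were higher, beside 2.45% of rows, and 1 was lower, beside 3.32%. All 3 PLZF_ON arrays lay above all 3 WT arrays for 5 of the 9, beside 5.55% of rows, and below them for 2, beside 6.22%. The difference was positive for 7 of the 9, beside 54.9% of rows. The median difference of the 9 was 0.59, and that of all tested rows was 0.026.

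**Figure D1:**
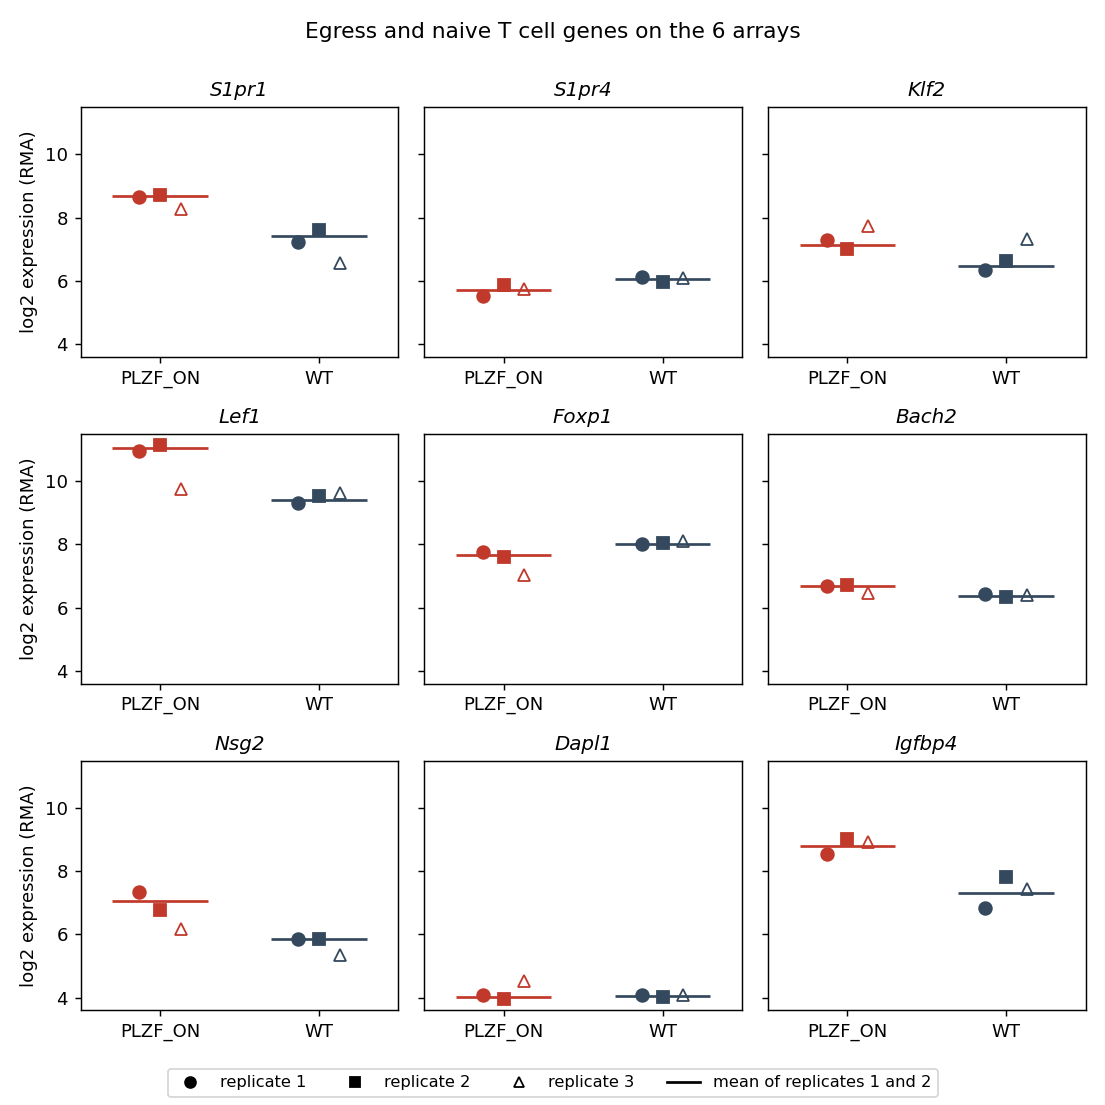
Log2 expression (RMA, vertical axis) of each gene on the 6 arrays, PLZF_ON in red and WT in dark blue; symbols stand for replicates 1 to 3, open triangles being replicate 3, and lines for the mean of replicates 1 and 2. Lef1 reached 10.93 and 11.13 on PLZF_ON replicates 1 and 2 and 9.75 on replicate 3, where it lay near the WT arrays, while S1pr1 and Igfbp4 were higher on all 3 PLZF_ON arrays.

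Among the egress receptors, S1pr1 encodes the main sphingosine-1-phosphate receptor for exit of T cells from thymus and lymph node. Its log2 level was 8.64, 8.71 and 8.26 on PLZF_ON replicates 1 to 3, against 7.25, 7.62 and 6.58 on WT replicates 1 to 3. The groups did not overlap, and the lowest PLZF_ON array lay above the highest WT array. Over the 4 arrays the difference was 1.24, or 2.37-fold (SE 0.17, 95% interval 0.83 to 1.65, limma adjusted p = 0.075), which did not pass. Over the 6 arrays it was 1.39, or 2.62-fold (SE 0.28, limma adjusted p = 0.213). Leaving out 1 of the 4 arrays gave differences of 1.055 to 1.429 for S1pr1.

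S1pr4 encodes another receptor for the same lipid, found on lymphocytes, with a lesser part in migration. It was at 5.53, 5.86 and 5.74 on PLZF_ON replicates 1 to 3, against 6.12, 5.98 and 6.08 on WT replicates 1 to 3. All PLZF_ON values lay below all WT values, by a small margin on replicate 2. The difference was -0.35 over the 4 arrays (SE 0.16, 95% interval -0.75 to 0.05, limma adjusted p = 0.611) and -0.35 over the 6 (SE 0.16, limma adjusted p = 0.882). The sign was thus opposite to that of S1pr1, and neither difference passed the test.

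Klf2, the factor upstream of S1pr1, was at 7.29, 7.02 and 7.75 on PLZF_ON replicates 1 to 3, against 6.33, 6.63 and 7.31 on WT replicates 1 to 3. Replicate 3 was the highest array of its group in both groups, so WT replicate 3 lay above PLZF_ON replicates 1 and 2. The difference was 0.67 over the 4 arrays, or 1.59-fold (SE 0.17, 95% interval 0.25 to 1.09, limma adjusted p = 0.269), and 0.59 over the 6 (SE 0.29, limma adjusted p = 0.92).

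Lef1, a partner of beta-catenin and a factor of early and naive T cells, was at 10.93, 11.13 and 9.75 on PLZF_ON replicates 1 to 3, against 9.29, 9.53 and 9.63 on WT replicates 1 to 3. PLZF_ON replicates 1 and 2 lay well above every WT array, and PLZF_ON replicate 3 only just did. Lef1 rose by 1.62 over the 4 arrays, or 3.08-fold (SE 0.16, 95% interval 1.24 to 2.0, limma adjusted p = 0.0347). The call was lost without WT replicate 1 (limma adjusted p = 0.0786), without PLZF_ON replicate 1 (0.081) and without PLZF_ON replicate 2 (0.221), with differences of 1.5, 1.72 and 1.52, and with all deposited rows tested together (0.288). Over the 6 arrays the difference was 1.12, or 2.17-fold (SE 0.35, limma adjusted p = 0.577). Without PLZF_ON replicate 3 and with WT replicate 3 kept, it was 1.55 (SE 0.15, limma adjusted p = 0.0158).

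Foxp1, a forkhead repressor that maintains quiescence of naive T cells, was at 7.75, 7.60 and 7.04 on PLZF_ON replicates 1 to 3, against 8.0, 8.03 and 8.12 on WT replicates 1 to 3. All PLZF_ON arrays lay below all WT arrays, replicate 3 the furthest. The difference was -0.34 over the 4 arrays, 1.27-fold lower (SE 0.13, 95% interval -0.67 to -0.02, limma adjusted p = 0.505), and -0.59 over the 6, 1.5-fold lower (SE 0.21, limma adjusted p = 0.713). Over 4 arrays Foxp1 was the 1 gene of the 9 that was lower at an unadjusted p under 0.05.

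Bach2, a repressor that restrains effector differentiation, was at 6.67, 6.71 and 6.45 on PLZF_ON replicates 1 to 3, against 6.43, 6.34 and 6.39 on WT replicates 1 to 3. The groups did not overlap, but PLZF_ON replicate 3 lay only just above the highest WT array. The difference was 0.31 over the 4 arrays (SE 0.13, 95% interval -0.01 to 0.63, limma adjusted p = 0.55) and 0.23 over the 6 (SE 0.15, limma adjusted p = 0.941). A second row carries the symbols of Bach2 and of its antisense gene Bach2os and cannot be given to either; its mean over the 4 arrays was lower in PLZF_ON, by a difference of -0.22.

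The remaining genes are markers of naive T cells rather than known regulators. Igfbp4 encodes a secreted binding protein of insulin-like growth factors, and it was at 8.55, 9.02 and 8.91 on PLZF_ON replicates 1 to 3, against 6.83, 7.82 and 7.42 on WT replicates 1 to 3. Every PLZF_ON array lay above every WT array. The difference was 1.46 over the 4 arrays, or 2.75-fold (SE 0.34, 95% interval 0.63 to 2.28, limma adjusted p = 0.226), and 1.47 over the 6, or 2.77-fold (SE 0.27, limma adjusted p = 0.157). The WT arrays themselves were spread, with an SD of 0.70 (n = 2) over replicates 1 and 2. Leaving out 1 of the 4 arrays gave differences of 0.965 to 1.953 for Igfbp4.

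Nsg2, which encodes an endosomal membrane protein known from neurons, was at 7.34, 6.77 and 6.17 on PLZF_ON replicates 1 to 3, against 5.86, 5.86 and 5.36 on WT replicates 1 to 3. No arrays overlapped between the groups, and replicate 3 was the lowest array of each. The difference was 1.20 over the 4 arrays, or 2.29-fold (SE 0.21, 95% interval 0.69 to 1.70, limma adjusted p = 0.124), and 1.07 over the 6, or 2.09-fold (SE 0.30, limma adjusted p = 0.487). Dapl1, which encodes a small protein related to death-associated protein, was at 4.08, 3.96 and 4.52 on PLZF_ON replicates 1 to 3, against 4.07, 4.02 and 4.09 on WT replicates 1 to 3. These values lay below 5.21, a level under which 95% of 1390 odorant and pheromone receptor genes have their mean, genes which T cells are not expected to express. Its difference was -0.03 over the 4 arrays (SE 0.13, 95% interval -0.35 to 0.30, limma adjusted p = 0.98), and it was the 1 gene of the 9 whose means lay below that level in both groups.

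**Figure D2:**
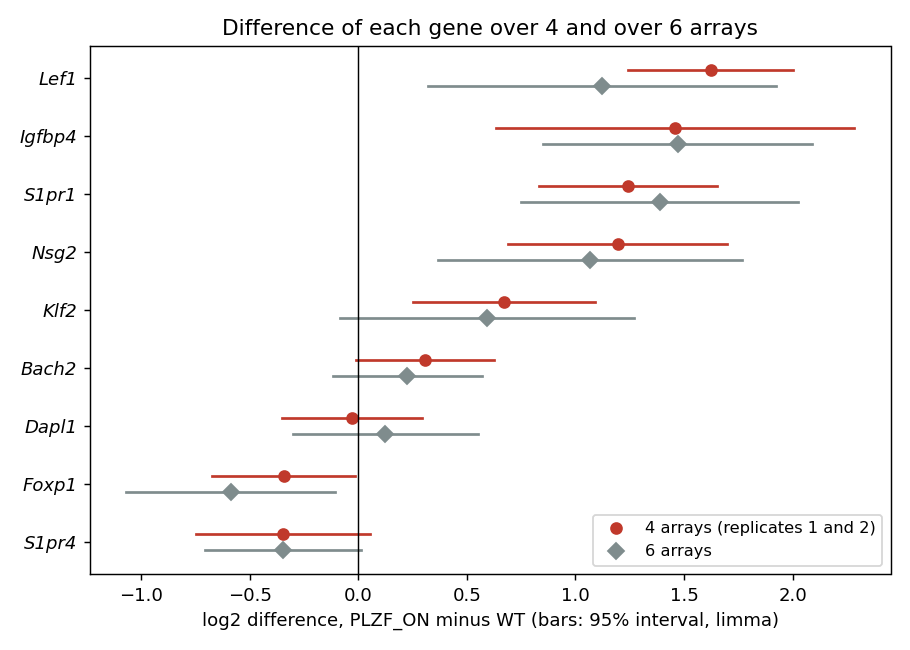
Log2 difference of each gene, PLZF_ON minus WT (horizontal axis), with the 95% interval from limma, over 4 arrays (red circles) and over 6 arrays (grey diamonds). Lef1 stood at 1.62 over 4 arrays and 1.12 over 6, S1pr1 at 1.24 and 1.39, and the 4-array intervals of S1pr4, Bach2 and Dapl1 included 0.

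Upstream sequence is shown for those of the 5 genes higher at an unadjusted p under 0.05 over 4 arrays that have an entry in the RefSeq promoter table of GRCm38.p6, which held 8 of the 9 genes and not S1pr1. Each run is the 250 bases before a start listed in that table, from the entry nearest the annotated gene start. The runs of Lef1 and Klf2 end at the annotated start, whereas those of Igfbp4 and Nsg2 lie inside the annotated gene. Capitals mark matches, on either strand, to the KLF core CACCC, the FOXO motif GTAAACA, the TCF/LEF core CTTTGA, the BACH and AP-1 motif TGAGTCA and the TATA motif TATAAA.
Lef1, chr3:131110047-131110296, + strand: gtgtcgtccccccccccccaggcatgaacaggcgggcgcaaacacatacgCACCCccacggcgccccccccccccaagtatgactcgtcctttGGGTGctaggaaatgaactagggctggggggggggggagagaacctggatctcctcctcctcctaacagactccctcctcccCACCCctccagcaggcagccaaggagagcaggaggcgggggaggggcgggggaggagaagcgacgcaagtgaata
Klf2, chr8:72318812-72319061, + strand: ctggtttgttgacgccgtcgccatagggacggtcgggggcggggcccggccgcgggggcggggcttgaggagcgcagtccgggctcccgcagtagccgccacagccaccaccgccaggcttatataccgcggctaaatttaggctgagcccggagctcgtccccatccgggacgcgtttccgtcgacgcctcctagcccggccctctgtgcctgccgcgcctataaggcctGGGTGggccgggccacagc
Igfbp4, chr11:99040994-99041243, + strand: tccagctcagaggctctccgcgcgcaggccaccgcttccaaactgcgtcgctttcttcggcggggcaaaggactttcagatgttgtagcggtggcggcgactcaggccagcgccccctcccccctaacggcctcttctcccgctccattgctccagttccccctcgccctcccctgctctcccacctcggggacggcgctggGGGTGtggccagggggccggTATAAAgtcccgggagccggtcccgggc
Nsg2, chr11:32000169-32000418, + strand: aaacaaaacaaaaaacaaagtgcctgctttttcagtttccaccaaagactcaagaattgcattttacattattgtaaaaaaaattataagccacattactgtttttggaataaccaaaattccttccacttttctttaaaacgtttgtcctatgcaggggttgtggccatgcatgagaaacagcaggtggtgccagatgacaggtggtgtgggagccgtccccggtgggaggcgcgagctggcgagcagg
Lef1 held 3 matches to the KLF core, Klf2 and Igfbp4 held 1 each, and Nsg2 held 0 of any motif searched. The KLF core is common, with a match in 52% of 32851 promoter windows of the same length. Igfbp4 held 1 match to the TATA motif, found in 12.4% of windows. The FOXO motif (3.17% of windows), the TCF/LEF core (13.8%) and the BACH and AP-1 motif (4.46%) had no match in the windows of these 4 genes. Among the genes not printed, Dapl1 held 1 FOXO and 1 TATA match, Bach2 held 1 TCF/LEF match, Foxp1 held 3 KLF matches and S1pr4 held 1; the windows of Bach2 and Foxp1 also lie inside the annotated gene. No matches to different motifs overlapped in the printed windows.

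Most other genes of the egress pathway differed less than S1pr1 and Klf2. In a list of 19 genes of sphingosine-1-phosphate signalling, which includes S1pr1, S1pr4 and Klf2, 18 were measured and 0 passed limma over 4 or over 6 arrays. At an unadjusted limma p under 0.05 over 4 arrays 3 were higher, S1pr1, Klf2 and Foxo1, beside 4.88% of all rows. By the same measure 1 was lower, S1pr2, beside 4.53%. Over 6 arrays S1pr1 alone had such a p and was higher, beside 2.45% of all rows. The median difference of the list over 4 arrays was 0.0038. S1pr2, a receptor that inhibits migration, was at 6.13, 5.79 and 6.84 on PLZF_ON replicates 1 to 3, against 6.37, 6.58 and 6.30 on WT replicates 1 to 3. Its difference was -0.51 over the 4 arrays (limma adjusted p = 0.419), and PLZF_ON replicate 3 lay above every WT array; over the 6 arrays it was -0.16 (limma adjusted p = 0.948). Foxo1, the factor that activates Klf2 and homing receptor genes, was at 8.40, 8.17 and 7.74 on PLZF_ON arrays, against 7.84, 7.99 and 7.94 on WT arrays, a difference of 0.37 over the 4 arrays (limma adjusted p = 0.528) and 0.18 over the 6 (0.941). Cd69, whose product antagonises S1pr1 on the cell surface, overlapped between the groups, at 6.26, 6.71 and 6.47 in PLZF_ON and 6.20, 6.50 and 6.88 in WT, with a difference of 0.13 over the 4 arrays (95% interval -0.36 to 0.62, limma adjusted p = 0.921) and -0.05 over the 6 (0.982).

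In a list of 18 genes of naive and quiescent T cells that holds none of the 9, 16 were measured. None of the 16 passed the adjusted limma test over 4 or 6 arrays, the smallest adjusted p over 4 arrays being 0.075. At an unadjusted limma p under 0.05 over 4 arrays 5 were higher (Ccr7, Il6ra, Treml2, Satb1 and Foxo1), beside 4.88% of all rows. By the same measure 1 was lower (Btg2), beside 4.53%, and the median difference was -0.0085. Over 6 arrays Ccr7 was higher and Btg2 lower at such a p, beside 2.45% and 3.32% of rows. Ccr7, the lymph node homing receptor, was at 8.02, 7.66 and 7.0 in PLZF_ON, against 6.43, 6.75 and 6.61 in WT (difference 1.25, limma adjusted p = 0.0986; 0.96 over 6 arrays, 0.45). Il6ra, the interleukin-6 receptor chain, was at 8.59, 8.24 and 7.15 in PLZF_ON, against 7.22, 7.18 and 7.41 in WT (difference 1.22, limma adjusted p = 0.075; 0.73 over 6 arrays, 0.906). Treml2, a receptor of the TREM family, was at 8.41, 8.28 and 7.14 in PLZF_ON, against 7.39, 7.59 and 7.17 in WT (difference 0.85, limma adjusted p = 0.118; 0.56 over 6 arrays, 0.941). Ccr7 was higher on all 3 PLZF_ON arrays, and Il6ra and Treml2 only on replicates 1 and 2. Il7r, the interleukin-7 receptor that naive cells need to survive, had a difference of -0.07 (95% interval -0.44 to 0.30, limma adjusted p = 0.95).

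The relatives of each gene mostly had differences close to 0, but many had means below the receptor gene level in both groups. These were 6 of 17 Klf genes, 6 of 13 measured in the TCF/LEF list and 8 of 12 in the Igfbp list. A difference near 0 says little for such genes. In the Klf family 17 of 17 genes were measured and 0 passed. At an unadjusted limma p under 0.05 over 4 arrays 1 of the 17, Klf2, was higher, beside 4.88% of all rows. The median difference was 0.01, with Klf6 at -0.27 (limma adjusted p = 0.634) and Klf5 at 0.21 (0.731). Among 13 measured of 14 TCF/LEF factors, cofactors and Wnt targets, Lef1 rose and 0 fell over 4 arrays. Of all rows 0.102% were called higher, and the median difference of the list was 0.08. The corepressor Tle4, which binds LEF1, was at 8.08, 8.29 and 7.63 in PLZF_ON, against 8.96, 8.67 and 9.09 in WT, with no overlap (difference -0.63, limma adjusted p = 0.28; -0.91 over 6 arrays, 0.339). Another corepressor of that family, Tle1, had a difference of 0.45 (limma adjusted p = 0.64), but its means, like those of Klf5, lay below the receptor gene level of 5.21 in both groups.

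Of the 4 Foxp genes, Foxp2 and Foxp3 had differences of -0.10 and -0.02 over the 4 arrays (limma adjusted p = 0.911 and 0.984), Foxp2 with means below the receptor gene level in both groups, and the median was -0.06. In the list of Bach factors, small Maf partners and Prdm1, 0 of 6 passed limma, and the median was -0.07. At an unadjusted limma p under 0.05 over 4 arrays 0 of the 6 were called, beside 4.88% of all rows higher and 4.53% lower. Bach1 had a difference of -0.29 (limma adjusted p = 0.676), and Prdm1, which encodes BLIMP-1 and is repressed by BACH2, one of -0.16 (95% interval -0.84 to 0.51, limma adjusted p = 0.931).

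In the list of Igfbp genes, Igf ligands and receptors, 12 of 12 were measured and 0 passed. At an unadjusted limma p under 0.05 over 4 arrays 3 were higher, beside 4.88% of all rows, and the median was 0.05. Igfbp7, a secreted protein of the same family as Igfbp4, was at 7.07, 6.86 and 6.28 in PLZF_ON, against 5.13, 5.68 and 5.73 in WT. Its difference was 1.56 (limma adjusted p = 0.075) and 1.23 over 6 arrays (0.271). Leaving out 1 of the 4 arrays gave differences of 1.288 to 1.837. Igfbp7 was higher on every PLZF_ON array, as was Igfbp4. Igf2r, the receptor that clears IGF2, had a difference of 0.43 (limma adjusted p = 0.436). In the Nsg list of 3 genes, Nsg1 and Caly had differences of -0.01 and 0.02 (limma adjusted p = 0.998 and 0.982), and the median was 0.02.

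Genes of activated and resident T cells were mostly lower in PLZF_ON. Of 11 measured of 12, 10 had a negative and 1 a positive difference over 4 arrays, beside 49.3% of all rows with a positive one. At an unadjusted limma p under 0.05, 8 were lower, beside 4.53% of rows, and 0 higher, beside 4.88%. The median was -1.08. As the list was chosen with earlier results of these data known, these counts describe it and do not test it. Itgae, the CD103 integrin chain, fell over 4 and over 6 arrays (differences -3.69 and -3.91, limma adjusted p = 0.00693 and 0.0116). Itga1, the CD49a chain, had a difference of -1.98 over 4 arrays (limma adjusted p = 0.075) and fell by 2.14 over 6 (limma adjusted p = 0.0425). The 4-array call of Itgae was lost without PLZF_ON replicate 2 (0.0874) and with all deposited rows tested together (0.252). Over 6 arrays the calls of Itgae and Itga1 were lost without WT replicate 1 (0.137 and 0.303), WT replicate 2 (0.0773 and 0.172), PLZF_ON replicate 2 (0.0685 and 0.0999) or WT replicate 3 (0.0558 and 0.24), with differences of -3.85 to -4.01 for Itgae and -1.97 to -2.25 for Itga1; both were also lost with all deposited rows tested together (0.153 and 0.207), and that of Itga1 with median centring (0.0707). Over 4 arrays 1 gene of the list fell, beside 0.170% of all rows called in either direction. Over 6 arrays 2 fell, beside 0.0935%, and 0 rose in either. Rgs1, which dampens signalling of chemoattractant receptors, had a difference of -1.59 over 4 arrays (limma adjusted p = 0.0925) and -1.56 over 6 (0.0584).

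**Figure D3:**
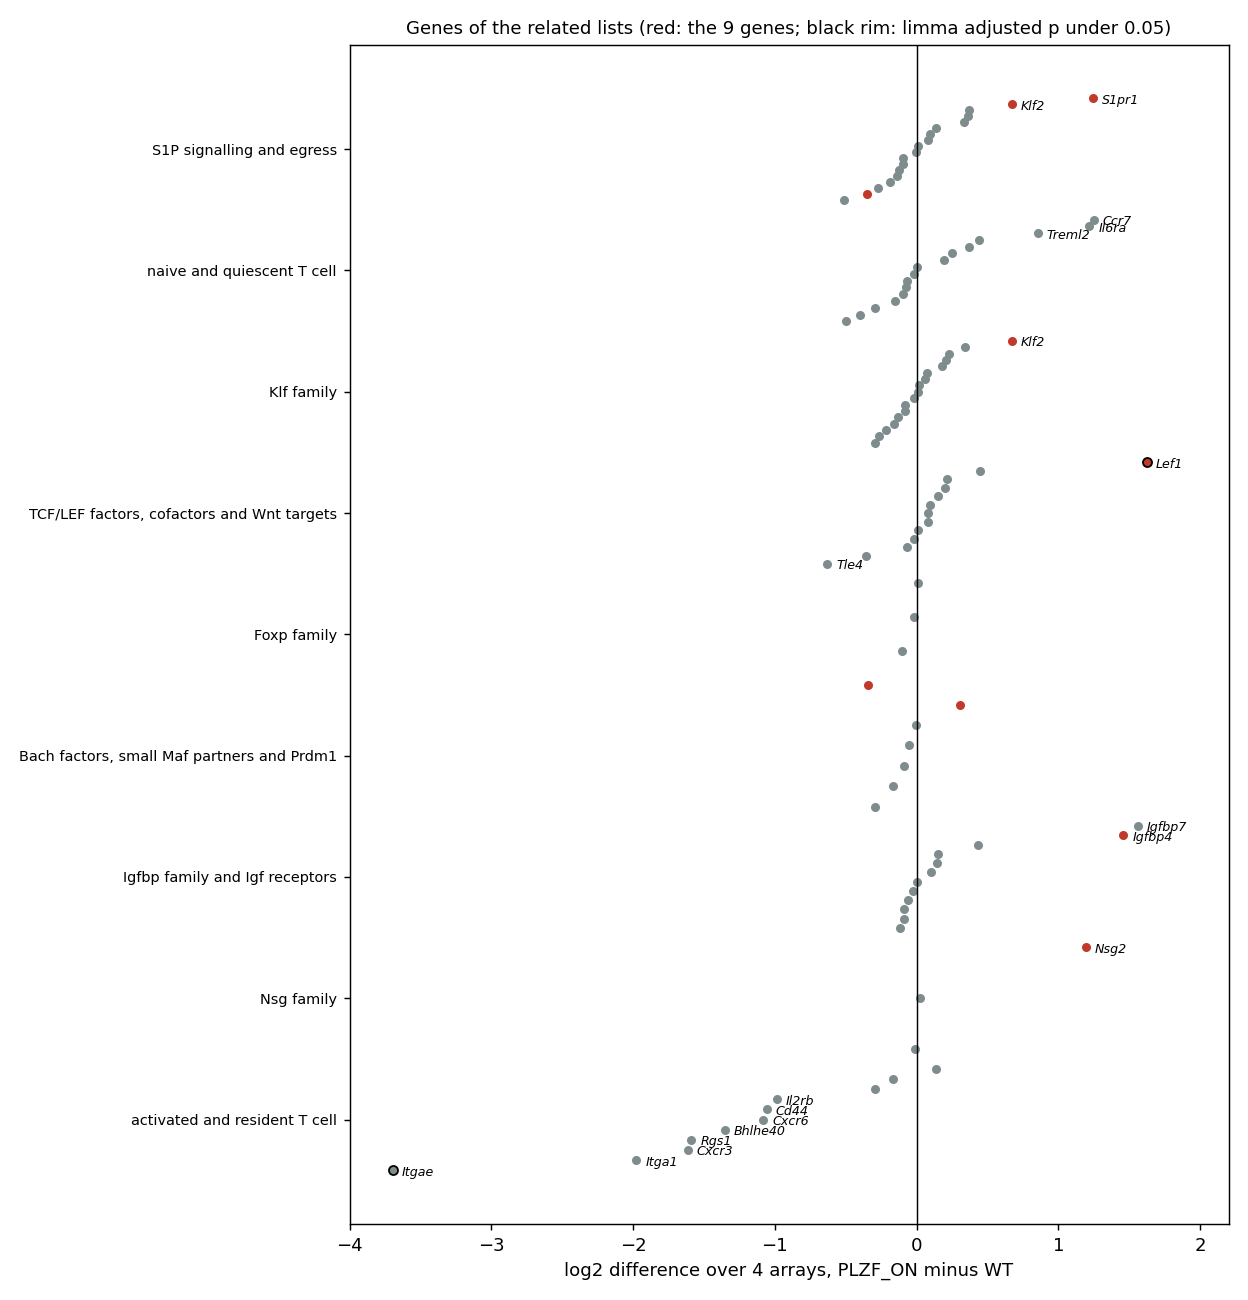
Log2 difference over 4 arrays, PLZF_ON minus WT (horizontal axis), of each measured gene of the related lists; red points are the 9 genes, black rims mark a limma adjusted p under 0.05, and genes with a difference of at least 0.6 in size are named. Most family members lay near 0, many of them with means below the receptor gene level in both groups. Lef1, Igfbp4, Igfbp7, S1pr1, Ccr7, Il6ra and Nsg2 lay above 1, and most genes of activated and resident T cells lay below 0.

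Genes with the profile most like that of Lef1 were sought by the Euclidean distance between log2 profiles over the 6 arrays, each less its mean, among 10530 genes. The 5 nearest were Mctp1 (distance 0.316), Cdh3, Tmod1, Cacna1e and Ntrk3 (0.358). Each of them was higher on PLZF_ON replicates 1 and 2 than on every WT array. On PLZF_ON replicate 3 each was only 0.05 to 0.55 higher than on WT replicate 3. Over the 6 arrays the means of Mctp1, 5.16 in PLZF_ON and 3.87 in WT, lay below the receptor gene level. Tmod1 and Cacna1e also rose over 4 arrays (1.86 and 1.68, limma adjusted p = 0.0206 and 0.0349), calls that both lost without PLZF_ON replicate 1 (0.0594 and 0.0633) and without PLZF_ON replicate 2 (0.162 and 0.206), as Cacna1e did without WT replicate 1 (0.0823). Both calls were also lost with all deposited rows tested together (0.262 and 0.299). Over 6 arrays neither passed (limma adjusted p = 0.413 and 0.355). The 5 nearest to S1pr1 were BC106179 (0.534), Cytip, Ccr9, Slamf6 and Atp1b1 (0.593), all with a higher level on PLZF_ON replicate 3 than on WT replicate 3. The distance between Lef1 and S1pr1 themselves was 1.18. Such likeness over 6 arrays is a description only.

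Markers of other cells were set beside these results, since conventional naive T cells, immature thymocytes and B cells also express several of the 9 genes. Of the B cell markers 9 of 10 were measured, and the group means of all 9 lay below the receptor gene level. Their summed log2 level was 35.1 to 38.2 in PLZF_ON and 35.1 to 36.2 in WT over the 6 arrays. The 10 myeloid markers summed to 45.7 to 50.1 in PLZF_ON and 44.4 to 46.9 in WT, and the single erythroid marker measured, Slc4a1, was at 4.85 to 5.04 in PLZF_ON and 4.80 to 4.85 in WT. The 4 NK cell markers measured summed to 19.4 to 29.1 in PLZF_ON and 25.7 to 28.8 in WT. Among them Klrb1c, which encodes NK1.1, was at 8.63, 7.25 and 7.78 on PLZF_ON replicates 1 to 3, against 10.24, 10.02 and 9.30 on WT replicates 1 to 3, with no overlap (difference -2.19, limma adjusted p = 0.157), while Ncr1, Eomes and Klri2 overlapped between the groups. The highest PLZF_ON sum of each of these lists was that of replicate 3. That array also had the highest median (5.01) and the smallest SD (1.79) over all rows, and the cause of its higher sums was not tested. Of the 10 myeloid markers, 6 had means below the receptor gene level in both groups, as had Slc4a1.

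The 3 coreceptor genes were not alike. Cd4 was at 9.46, 8.90 and 8.91 on PLZF_ON arrays, against 8.01, 7.80 and 7.56 on WT arrays, with no overlap (difference 1.28 over 4 arrays, limma adjusted p = 0.115; 1.30 over 6, 0.124). Cd8b1 was at 5.08, 5.89 and 7.77 on PLZF_ON arrays, against 5.44, 5.54 and 5.20 on WT arrays, and Cd8a at 4.44, 4.39 and 6.55, against 4.60, 4.73 and 4.51. Both Cd8 genes were thus high on PLZF_ON replicate 3 alone. With their regulator Zbtb7b (difference 0.05 over 4 arrays) the summed level of the list was 25.3 to 29.3 in PLZF_ON and 23.8 to 24.4 in WT. Cd4 was higher in PLZF_ON beside S1pr1, Lef1 and Igfbp4 over the 4 arrays, and the part of other CD4+ T cells in those results was not tested.

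The 6 immature thymocyte markers measured summed to 27.9 and 27.0 on PLZF_ON replicates 1 and 2, against 27.3 and 27.2 on WT replicates 1 and 2. On PLZF_ON replicate 3 they summed to 39.0. Cd24a was at 4.92, 4.50 and 9.58 in PLZF_ON, against 5.27, 4.52 and 4.41 in WT, and Dntt, the terminal transferase of immature cells, at 3.78, 4.10 and 7.19 in PLZF_ON, against 3.46, 4.03 and 4.07 in WT. Over the 4 arrays the median difference of this list was 0.005. Only Arpp21 had an unadjusted limma p under 0.05 (difference 0.34, limma adjusted p = 0.481), beside 4.88% of all rows higher at such a p. Lef1 and S1pr1 were both lower on PLZF_ON replicate 3 than on the other PLZF_ON arrays and above every WT array, and the part of these cells in those values was not tested. Over the 6 arrays the means of Rag2, Dntt, Arpp21 and Cd8a lay below the receptor gene level in both groups, though Dntt and Cd8a lay above it on PLZF_ON replicate 3.

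The 12 genes listed as iNKT markers include the Cd3 genes and others that other T cells share. Their sum therefore does not measure the share of iNKT cells. It was 113.6 and 115.2 at its lowest and highest on PLZF_ON replicates 1 and 2, against 111.8 and 112.6 on those WT replicates. On PLZF_ON replicate 3 the sum was 104.9. Over 4 arrays 8 of the 12 had a positive difference, beside 49.3% of all rows, and the median was 0.34. Over 6 arrays 7 of the 12 had one, beside 54.9%, and the median was 0.13. At an unadjusted limma p under 0.05 over 4 arrays, 5 were higher and 2 lower, beside 4.88% and 4.53% of all rows. Over 6 arrays 1 was higher and 2 lower at such a p, beside 2.45% and 3.32%. The 2 lower were Cd44, the memory marker, and Il2rb, the interleukin-2 and interleukin-15 receptor chain, below WT on every PLZF_ON array. Their differences were -1.06 and -0.98 over 4 arrays (limma adjusted p = 0.157 and 0.116) and -1.20 and -1.22 over 6 (0.154 and 0.369). Slamf6, a receptor needed for iNKT development, had a difference of 1.34 (limma adjusted p = 0.207) and of 1.26 over 6 arrays (0.363). Cd5 and Cd28 had differences of 0.77 and 0.64 over 4 arrays (limma adjusted p = 0.198 and 0.192). Over 6 arrays these were 0.51 and 0.35 (limma adjusted p = 0.888 and 0.941).

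**Figure D4:**
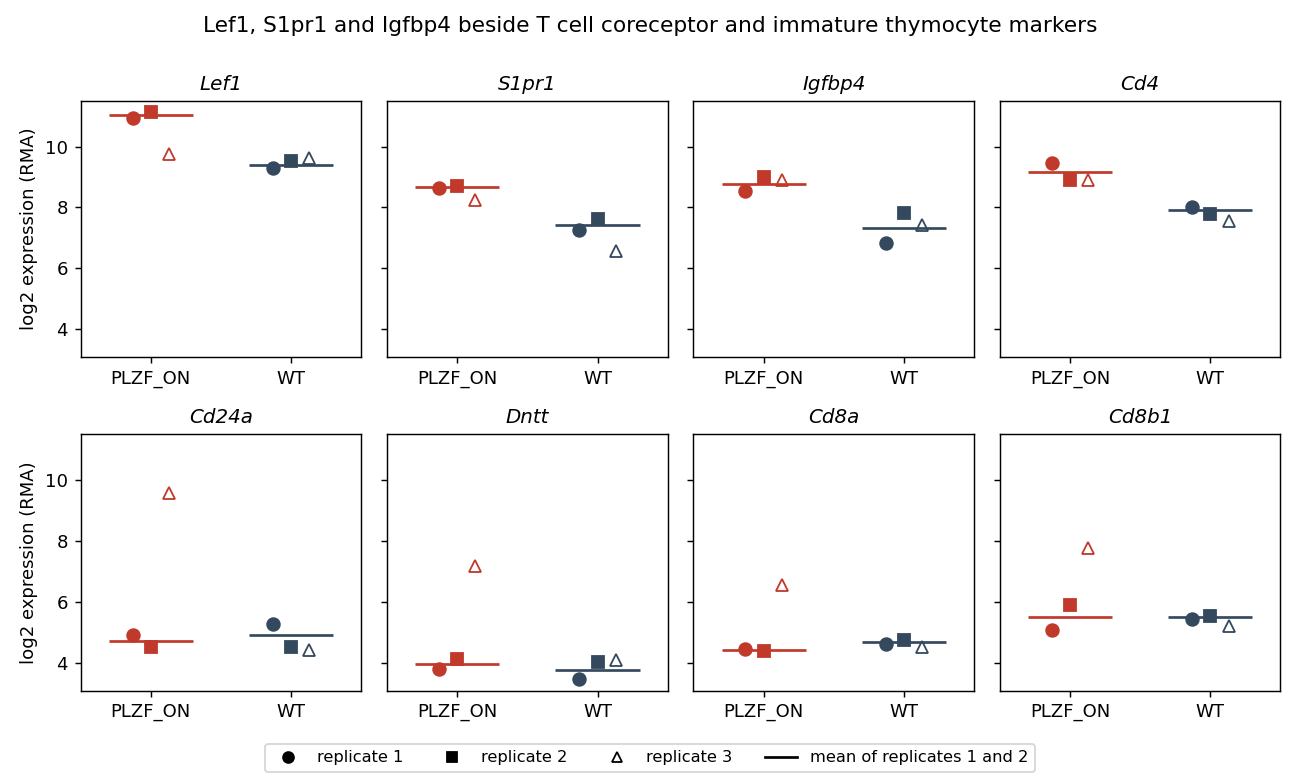
Log2 expression (RMA, vertical axis) of Lef1, S1pr1, Igfbp4, T cell coreceptor and immature thymocyte markers on the 6 arrays, PLZF_ON in red and WT in dark blue; symbols stand for replicates and lines for the mean of replicates 1 and 2. Cd24a (9.58), Dntt (7.19), Cd8a (6.55) and Cd8b1 (7.77) were high on PLZF_ON replicate 3 alone, while Cd4 was higher on all 3 PLZF_ON arrays.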

How the data were processed

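The deposited table holds log2 expression values of 6 arrays, 1 column per sample; RMA is named for it in the submitters' processing notes, and the sources used here give no version, genome build or annotation. Of 41345 rows, 23521 had exactly 1 symbol in the platform annotation and were tested; 1814 had several and 16010 none. Where a gene had several rows, the brightest on average stood for it. The values were used as deposited. Groups came from the sample titles. PLZF_ON was compared with WT over 4 and over 6 arrays with limma 3.58.1 in R 4.3.3 (two-sided, genotype as the only term, Benjamini-Hochberg over all tested rows at 0.05); the fits had 2 and 4 residual degrees of freedom, so the number of arrays limits precision. The script was tested on simulated data. The members and lists were chosen with earlier results of these data known. Named genes were the 9, genes of each list passing the 4-array test or among its 3 smallest p, fixed genes of which 5 are reported here (Foxo1, Ccr7, Il7r, Cd69, Prdm1), and the 5 nearest profiles; markers named singly were chosen after their values were seen. Figures were drawn with matplotlib 3.10.9.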

Additional observations from a re-analysis of the deposited data

How the results depend on the processing

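Over the 4 arrays, 111 of 125 values of the 9 genes under 14 alternatives kept their direction and their side of the threshold, and over the 6 arrays 122 of 134 under 15. Some alternatives could not move a difference, such as the mean of a gene's rows, since each of the 9 has 1 row. Lef1, which alone passed over 4 arrays, kept its call under 9 of the 14. Dapl1, near background, changed sign over 4 arrays without PLZF_ON replicate 2 (0.034) and with all 6 arrays (0.12), and over 6 arrays without PLZF_ON replicate 3 (-0.0435) and with array weights (-0.0171); leaving out 1 array gave it -0.091 to 0.034 over 4 arrays and -0.0435 to 0.2385 over 6. Of 16 other genes named, 193 of 224 values over 4 arrays and 200 of 240 over 6 kept direction and side. Cd69 changed sign over 4 arrays without WT replicate 1 (-0.0195), without PLZF_ON replicate 2 (-0.092) and with all 6 arrays (-0.046), its values without 1 array being -0.092 to 0.359; over 6 arrays it changed sign without PLZF_ON replicate 1 (0.0647), without WT replicate 3 (0.129), with quantile normalization (0.0507) and with array weights (0.0132), its values without 1 array being -0.21 to 0.129. S1pr2 changed sign over 6 arrays without PLZF_ON replicate 2 (0.0697), its values without 1 array being -0.453 to 0.0697. Of the 9 genes, 1 passed over 4 arrays; leaving out 1 array gave 0 to 3 (3 without WT replicate 2, being Lef1, S1pr1 and Igfbp4), testing all deposited rows together 0, all 6 arrays 0, and an unadjusted p 6. Over 6 arrays 0 passed; leaving out 1 array gave 0 to 1, array weights 4 (Lef1, S1pr1, Nsg2 and Igfbp4), and an unadjusted p 5. Of all rows, 40 passed over 4 arrays (24 higher and 16 lower), 101 with the replicate number as a block, 0 to 106 without 1 array (9 higher and 23 lower without PLZF_ON replicate 1, 0 without PLZF_ON replicate 2 and 106 without WT replicate 2), 0 of all deposited rows, 2213 by an unadjusted p and 22 with all 6 arrays. Over 6 arrays 22 passed (6 higher and 16 lower), 0 to 107 without 1 array (107 without PLZF_ON replicate 3), 0 of all deposited rows, 5 with median centring, 259 with array weights and 1358 by an unadjusted p. The cause of these changes was not tested. Deviations of arrays with the same number correlated at 0.0916, 0.253 and 0.239 over the 6 arrays. Of pairs with unlike numbers, PLZF_ON replicate 1 and WT replicate 2 correlated at 0.124, and the rest at -0.235 to -0.0298. The numbers were not taken to pair the samples, because no label says that they do, and the correlations do not settle it. With the replicate block 1 of the 9 genes passed over 4 arrays and 0 over 6. The block gave S1pr1 a limma adjusted p of 0.0594 over 4 arrays and 0.0791 over 6, and Igfbp4 0.0582 and 0.0685. Itga1 and Rgs1 passed with the block over 4 arrays (limma adjusted p = 0.0303 each) and Rgs1 over 6 (0.0405). Dapl1 has no value among brighter rows alone. Signal near background limits Dapl1, and 2 or 3 arrays per group limit all values.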
